A study of Homo sapiens with 6 samples.

Results

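Chemokine and interleukin ligand genes were read in the RNA-seq count table of Caki-1 cells, as the 76 of its 60708 genes whose symbol is a chemokine ligand name (CCL, CXCL, CX3CL or XCL and a number) or an interleukin name (IL, a number and, in some, the letter A or B). They comprise 41 chemokine and 35 interleukin genes, so ligands named in another way, such as LIF or MIF, and all receptors fall outside the rule. The study asked how loss of VHL, the E3 ligase that marks hypoxia-inducible factors for degradation, alters gene expression in Caki-1, a human clear cell renal carcinoma line with wild-type VHL. VC cells (n = 3 libraries) are the vector control, whose vector is not stated for these libraries in the sources used here. VHL-KO cells (n = 3) had received CRISPR lentivirus with guide RNA against VHL and were selected with puromycin, and which guide was used is not stated. Clonal VHL-KO lines were made and tested by immunoblot. How many clones the libraries represent is not given in the sources used here, so VHL deficiency and the properties of a clone cannot be told apart. Library totals were 31789923, 28463579 and 34881739 reads in VC 1 to 3 and 29139722, 22805385 and 22628246 in VHL-KO 1 to 3.

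Markers of the line were read beside markers of cells that also make or answer these ligands. Of 10 renal epithelial and tumor cell markers, 8 had 10 or more reads in a library; PAX8, a renal lineage transcription factor, had between 12971 and 16327 reads in each library, LHX1 had 1711 to 1990 reads in VC and 375 to 426 in VHL-KO, EPCAM 31 to 56 and 4 to 17, and PAX2 had no read. The leukocyte marker CD53 had no read and PTPRC at most 1, and 5 of 6 T cell genes (CD3D, CD3E, CD3G, CD2 and CD4) and 5 of 6 neutrophil markers had none. CD8A, the other T cell gene, had 10 to 12 reads in VC and 4 to 17 in VHL-KO. Of 5 pan-leukocyte markers, 2 passed 10 reads, LCP1 (the most abundant, 53 to 113 reads) and CORO1A, which had 53 to 77 reads in VC and 13 or 14 in VHL-KO; the list summed to between 4.39 and 5.48 CPM (counts scaled to library size, unnormalized here) in VC and between 2.44 and 3.80 in VHL-KO. Of 8 myeloid markers, 3 passed, CD14 with 49 to 58 reads in VC and 76 to 113 in VHL-KO, CSF1R with 18 to 27 and 0 to 6, and ITGAM with 7 to 19 and 0 to 11, with TYROBP and FCGR3A at 0. The myeloid sum was 2.26 to 3.44 CPM in VC and 3.67 to 5.70 in VHL-KO. Fibroblast markers, led by COL1A1, summed to 40.5 to 49.3 CPM in VC and 24.0 to 27.5 in VHL-KO, with 2 of 6 genes past 10 reads and LUM at 0. Markers of T cells, B cells, neutrophils and endothelial cells each summed to no more than 0.652 CPM in any library.

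Chemokines are small secreted or shed proteins that guide leukocytes through G protein-coupled receptors: CXC ligands with an ELR motif attract neutrophils through CXCR1 and CXCR2, whereas many CC ligands act on monocytes, T cells and eosinophils. Interleukins signal through cytokine receptor chains that they often share, such as IL6ST for IL6 and IL11 or the common gamma chain IL2RG for IL7 and IL15. In epithelial and tumor cells many of these genes are induced through NF-κB and AP-1, and their mRNAs are often short-lived.

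VHL, the targeted gene, had 1454, 1124 and 1522 reads in VC 1 to 3 and 929, 657 and 650 in VHL-KO 1 to 3. Every VHL-KO library lay below every VC library, also after normalization (40.1 ± 2.38 CPM in VC and 31.9 ± 2.49 in VHL-KO, SD, n = 3), so the labels and the counts run the same way. CPM here and below are TMM-normalized unless stated. The log2 fold change was -0.33 ± 0.11 (SE; adjusted p = 0.0109, edgeR), and the call was lost with offsets for GC content and transcript length (-0.11, adjusted p = 0.277), with upper quartile factors (-0.22, adjusted p = 0.0905) and without VC 1 (-0.28, adjusted p = 0.0862) or VHL-KO 2 (-0.30, adjusted p = 0.0621). Across all 14 alternatives the adjusted p for VHL ran from 2.9e-04 to 0.277. Reads over the whole gene do not show the edited bases or the protein.

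Of the 76 ligand genes, 19 had 10 or more reads in any library: the chemokines CXCL1, CXCL2, CXCL3, CXCL5, CXCL6, CXCL8, CXCL16, CX3CL1, CCL5 and CCL28, and the interleukins IL6, IL7, IL11, IL12A, IL15, IL18, IL23A, IL32 and IL34. Over the whole table, that level was reached by 17401 genes and 32134 had no read. The 10-read level was met in every library by 13 of the 19 and, for IL7, in VC libraries only. Another 17 ligand genes had between 1 and 9 reads at most. The highest of them was CCL26, an eosinophil-attracting CC ligand, with 1, 1 and 2 reads in VC and 6, 9 and 6 in VHL-KO; the lowest maximum among the 19 was 24 reads, for IL23A. IL36B reached 6 reads, in VHL-KO 2 alone. CCL20, IL1B and IL1A reached 5, 5 and 4 reads, and CCL3, IL12B, IL17B, IL19, CXCL9, CXCL10, CXCL11, IL37, IL5, XCL1, CCL4 and IL27 at most 3.

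The remaining 40 ligand genes had no read. They were the CXC ligands CXCL12, CXCL13, CXCL14 and CXCL17; 19 of the 26 CC and XC ligands, among them the monocyte attractants CCL2, CCL7 and CCL8 and the homeostatic ligands CCL19, CCL21 and CCL25, together with CCL1, CCL11, CCL13 to CCL18, CCL22 to CCL24, CCL27 and XCL2; and the interleukins IL2, IL3, IL4, IL9, IL10, IL13, IL16, IL17A, IL20, IL21, IL22, IL24, IL25, IL26, IL31, IL33 and IL36A. For these genes a difference was not detectable at this depth: 3 counts, the limit that a count of 0 allows, equal 0.0860 to 0.133 unnormalized CPM depending on the library, a limit that covers counting error only. The families were thus read very unevenly, with all 6 ELR CXC ligands that the name rule takes in past 10 reads (PPBP, an ELR ligand outside it, had at most 4) against 2 of 26 CC and XC ligands, none of 3 interferon-inducible CXC ligands (CXCL9, CXCL10, CXCL11) and none of 6 interleukin-10 family genes.

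Among the 19 tested ligand genes, 6 were called higher in VHL-KO (31.6%, against 28.5% of all 17401 tested genes) and 6 lower (31.6%, against 31.2%), at an edgeR adjusted p under 0.05. The higher genes were IL18, CXCL1, IL32, CCL28, CCL5 and CXCL6, and the lower genes IL6, IL15, IL11, CXCL5, IL12A and IL7, the last of which passed the filter through VC alone. With a change of at least 2-fold, 4 were higher (21.1%, against 13.9% of all genes) and 4 lower (21.1%, against 12.3%). Their median log2 fold change was -0.17, beside -0.01 for all tested genes, and had no stable sign: it was 0.097 without VC 3. These shares of 19 genes were not tested against those of all genes, and the account below is of single genes. With library size alone as scaling, the calls over all genes were 3763 higher and 6740 lower, in place of 4958 and 5436, and the median of all genes was -0.20; with upper quartile factors that median was 0.10. Of 10 tested chemokines 4 were called higher and 1 lower, and of 9 interleukins 2 higher and 5 lower. Among these calls, those of CXCL6, IL6, IL12A and IL15 were each lost under some alternative, and IL7 passed the filter through VC alone. The difference between the families was not tested.

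Because the sources used here do not say whether the replicates were separate cultures, the p-values measure only the spread between these libraries, which may be technical. Log2 fold changes rose with the GC content of transcripts across 17355 annotated genes (Spearman's rho = 0.314, a description across genes, which are not independent replicates), so each fold change below was also computed with offsets that remove trends with GC content and length, and that value is given where it ends a call, makes one or moves the change by more than 1.5-fold. In bulk RNA, fewer cells that make a ligand and less mRNA per cell cannot be told apart.

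Summed over the 76 genes, ligand mRNA made up 128.5, 132.1 and 134.5 CPM in VC 1 to 3 and 161.3, 166.8 and 163.1 in VHL-KO 1 to 3. Scaled to library size alone the sums were 138.1, 137.9 and 146.5 CPM in VC and 147.9, 157.9 and 153.7 in VHL-KO, so most of the distance comes from the TMM factors. IL18, IL6, CXCL1 and IL32 together held 66.6% to 67.7% of that sum in VC and 77.1% to 78.9% in VHL-KO, so most ligand reads in either group came from 4 genes.

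**Figure D1:**
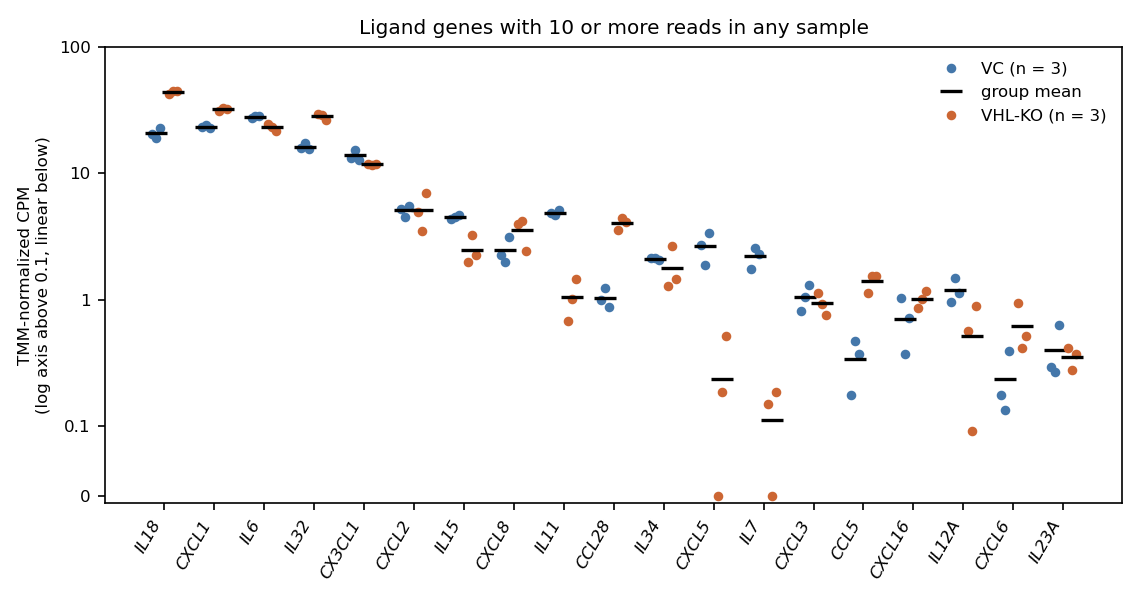
TMM-normalized CPM of the 19 tested ligand genes in each VC and VHL-KO library (points, n = 3 per group) with group means (bars), on an axis that is logarithmic above 0.1 CPM and linear below. IL18 averaged 20.8 CPM in VC and 44.1 in VHL-KO, while CXCL5 and IL7 each had a VHL-KO library at 0.

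The ELR CXC ligands under the name rule, which leaves out PPBP, lie together on chromosome 4 in the GENCODE annotation of GRCh38, in the order CXCL8 (chr4:73740519-73743716), CXCL6 (chr4:73836640-73849064), CXCL1 (chr4:73869393-73871308), CXCL5 (chr4:73995642-73998677), CXCL3 (chr4:74036589-74038807) and CXCL2 (chr4:74097040-74099196), the last 3 on the minus strand. Sequences before their starts are shown for an element that 5 of the 6 share; whether it bears on their levels was not tested. Of the 19 tested ligand genes, 12 had an entry in the RefSeq promoter table (GRCh38.p14). In the 250 bases before the start, CXCL1, CXCL2, CXCL3, CXCL5 and CXCL6 each held the same match to the NF-κB consensus, GGGAATTTCC, between 68 and 91 bases before the start and overlapping its own match on the other strand; 5.21% of 35116 promoters held a match to that consensus on either strand. CXCL8 held no full match to the consensus, but its bases below hold tggaatttcc, which differs from the match of the other 5 in its first letter only. CXCL8 also held an AP-1 element (TGANTCA, 6.57% of promoters, both strands) that the other 5 lacked. The bases below run 5′ to 3′ on the gene's strand, from 150 bases before the RefSeq start to the last base ahead of any annotated transcript, with the NF-κB or AP-1 match in capitals. CXCL8 is chr4:73740419-73740518 (+), CXCL6 chr4:73836528-73836639 (+), CXCL1 chr4:73869243-73869392 (+), CXCL5 chr4:73998678-73998827 (-) and CXCL2 chr4:74099197-74099345 (-). The CXCL3 match lies before its RefSeq start but inside the gene as GENCODE annotates it, and its bases are not shown. A match is a description of letters and not a measured binding site.
CXCL8: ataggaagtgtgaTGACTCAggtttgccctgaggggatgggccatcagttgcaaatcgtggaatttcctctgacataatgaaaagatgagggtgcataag
CXCL6: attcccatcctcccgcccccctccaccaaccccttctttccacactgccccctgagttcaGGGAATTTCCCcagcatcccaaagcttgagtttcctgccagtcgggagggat
CXCL1: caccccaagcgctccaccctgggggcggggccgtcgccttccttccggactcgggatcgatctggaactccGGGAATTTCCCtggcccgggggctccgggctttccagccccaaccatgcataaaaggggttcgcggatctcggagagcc
CXCL5: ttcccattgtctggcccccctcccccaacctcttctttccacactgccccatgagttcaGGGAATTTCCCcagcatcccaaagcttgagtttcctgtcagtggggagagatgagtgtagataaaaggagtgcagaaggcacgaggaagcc
CXCL2: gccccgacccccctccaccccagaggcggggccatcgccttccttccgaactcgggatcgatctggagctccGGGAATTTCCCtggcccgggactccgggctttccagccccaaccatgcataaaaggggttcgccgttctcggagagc

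CXCL5, whose upstream bases closely resemble those of CXCL6 in the lines above, had 93, 56 and 128 reads in VC 1 to 3 and 0, 4 and 11 in VHL-KO 1 to 3. Every VHL-KO library lay far below every VC library, and the VHL-KO libraries differed among themselves from no read to 11. CXCL5 had a log2 fold change of -3.58 ± 0.49 (SE, edgeR adjusted p = 7.9e-07), 12-fold lower in VHL-KO. It was -2.91 without VHL-KO 1 (adjusted p = 6.8e-06) and -4.93 without VHL-KO 3. Without VHL-KO 3 the gene passed the filter through VC alone, so its call in that fit adds no support. Over its 13 alternatives the adjusted p ran from 1.0e-19 to 0.00327. Of its exonic bases, 17.3% overlap a gene on the opposite strand, and since the strand setting of the counting is not given in the sources used here, reads of the 2 genes cannot be told apart there.

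CXCL1, the ELR ligand with the most reads, had 792, 714 and 873 reads in VC and 839, 715 and 689 in VHL-KO. Raw counts overlapped, and after normalization for depth and composition every VHL-KO library was above every VC library (23.4 ± 0.549 CPM in VC and 32.3 ± 0.865 in VHL-KO, SD). Its log2 fold change was 0.46 ± 0.11 (adjusted p = 8.3e-04, edgeR) and kept its call and direction under all 14 alternatives. CXCL2 had 178, 134 and 210 reads in VC and 131, 76 and 150 in VHL-KO. Its groups overlapped after normalization, the log2 fold change was 0.015 with a 95% interval from -0.42 to 0.45, and its sign changed under 6 alternatives. CXCL1, CXCL2 and CXCL3 are close paralogs: 4.6%, 13.4% and 6.0% of their 50-base transcript words also occur in another gene, and 0.0%, 5.3% and 3.3% of their 100-base words, so how many of their reads could be placed uniquely depends on the read length.

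CXCL8, encoding the prototype neutrophil attractant, had 77, 59 and 120 reads in VC and 106, 91 and 52 in VHL-KO. VHL-KO 1 and VHL-KO 2 were above every VC library after normalization, and VHL-KO 3 lay within the VC range. The log2 fold change was 0.52 (95% interval 0.02 to 1.02, adjusted p = 0.0693, edgeR), not called; it was called with the GC and length offsets (0.94, adjusted p = 7.4e-04), with upper quartile factors (0.63, adjusted p = 0.0231), without VC 3 (0.76, adjusted p = 0.013) and without VHL-KO 3 (0.72, adjusted p = 0.014), within a range of 7.4e-04 to 0.282 over 14 alternatives. CXCL6, which like CXCL8 binds both CXCR1 and CXCR2, ranged from 4 to 15 reads in VC and from 9 to 25 in VHL-KO. Its normalized groups did not overlap, but at these counts the call was marginal (log2 fold change 1.38 ± 0.60, adjusted p = 0.0498, edgeR). The call was lost under 7 of 13 alternatives: without VC 1 (1.21), VC 2 (1.13) or VHL-KO 1 (0.95), with library size alone, in DESeq2, without the filter and with a replicate block. Without VC 3 the change was 2.00, but there CXCL6 passed the filter through VHL-KO alone, so its call in that fit adds no support. Its adjusted p ran from 0.0195 to 0.253. CXCL3 had 28 to 50 reads in VC and 16 to 30 in VHL-KO, overlapping, with a log2 fold change of -0.18 (95% interval -0.91 to 0.55) that was 0.031 without VC 3. So of these 6 ELR genes CXCL5 was far lower in VHL-KO and CXCL1 moderately higher, and the other 4 had no change that passed the test under every alternative.

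**Figure D2:**
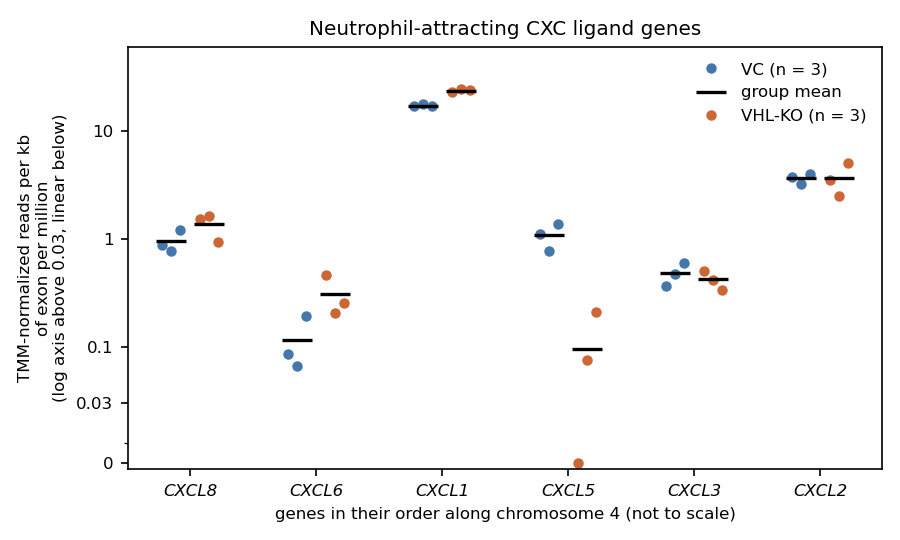
TMM-normalized RPKM (reads per kilobase of exon scaled to depth) for the 6 ELR CXC ligand genes under the name rule in their order along chromosome 4, per library (points, n = 3 per group) with group means (bars), on an axis that is logarithmic above 0.03 and linear below. CXCL5 is the gene whose VHL-KO libraries (mean 0.0959) sit farthest below VC (mean 1.09), and CXCL1 is the most abundant in both groups.

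The CC ligands that passed the filter were both higher in VHL-KO. CCL28, a mucosal epithelial chemokine that attracts lymphocytes and eosinophils through CCR10 and CCR3, had 34, 37 and 33 reads in VC and 95, 96 and 88 in VHL-KO. The lowest VHL-KO library had more than 2-fold the reads of the highest VC library, although VHL-KO 2 and VHL-KO 3 were shallower than every VC library. This gave a log2 fold change of 1.97 ± 0.25 (edgeR adjusted p = 2.2e-07), 3.91-fold, and the call held under all 14 alternatives (1.78 to 2.39). RefSeq lists 2 starts for CCL28, on the minus strand; the 250 bases before the downstream start held the core of the hypoxia response element, ACGTG, 1 time and its variant GCGTG 3 times over both strands, and those before the upstream start neither. GCGTG also occurred before the starts of CXCL5 and IL11, which were lower, and of 1 of the IL32 starts. ACGTG occurs in 18.5% and GCGTG in 32.2% of all promoters of that length, and the counts do not show which start was used.

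CCL5, which attracts T cells and monocytes, ranged from 6 to 14 reads in VC and from 30 to 33 in VHL-KO. The groups did not overlap, and the log2 fold change of 2.04 ± 0.43 (adjusted p = 2.4e-04, edgeR), 4.11-fold, was called under all 13 alternatives (1.68 to 2.34). Of its 50-base transcript words 15.6% also occur in another gene. The transmembrane chemokines, which are shed by ADAM10 and ADAM17, were not called. CX3CL1 had 455, 459 and 489 reads in VC and 319, 253 and 251 in VHL-KO, and its normalized groups lay close without overlap (13.9 ± 1.37 and 11.8 ± 0.114 CPM). Its log2 fold change was -0.23 (95% interval -0.52 to 0.05, adjusted p = 0.154, edgeR); it passed the test with library size alone (-0.42, adjusted p = 0.0118) and with GC and length offsets (-0.33, adjusted p = 0.01), over a range of 0.01 to 0.478. CXCL16 had 11 to 35 reads in VC and 22 to 25 in VHL-KO, with an interval from -0.32 to 1.35; a p that misses the threshold does not show that these levels are alike.

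Among interleukin-1 family genes, IL18, which is made as a precursor and cut by caspase-1, was the only gene with 10 or more reads. It had 703, 567 and 863 reads in VC and 1127, 969 and 965 in VHL-KO. All VHL-KO libraries exceeded all VC libraries, before and after normalization (20.8 ± 1.83 CPM in VC, 44.1 ± 1.68 in VHL-KO). IL18 rose by a log2 fold change of 1.08 ± 0.11 (edgeR adjusted p = 9.9e-09), 2.12-fold higher, and was called under all 14 alternatives (0.89 to 1.36). IL1A and IL1B never exceeded 5 reads, and IL33 and IL36A had none.

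IL11 and IL6 signal through the shared receptor chain IL6ST. IL11 (chr19:55364382-55370463, minus strand) had 165, 139 and 194 reads in VC and 18, 22 and 31 in VHL-KO. The groups were far apart, with a mean of 4.87 ± 0.219 CPM in VC and 1.05 ± 0.391 in VHL-KO. IL11 had a log2 fold change of -2.24 ± 0.25 (edgeR adjusted p = 4.7e-08), 4.71-fold lower, and was called under all 14 alternatives (-2.54 to -1.97). The bases before its start (chr19:55370464-55370613, minus strand, RefSeq, GRCh38.p14) are shown for the AP-1 match they hold, in capitals, which CXCL8 and IL23A, both not called, also held; a part of AP-1 in the IL11 decrease was not tested.
IL11: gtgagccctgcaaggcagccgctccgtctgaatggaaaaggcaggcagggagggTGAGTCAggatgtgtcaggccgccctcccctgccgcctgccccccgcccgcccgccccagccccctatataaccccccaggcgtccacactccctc

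IL6 had 932, 845 and 1075 reads in VC and 653, 501 and 460 in VHL-KO. No VHL-KO library reached a VC library, but after normalization the distance was small (28.0 ± 0.628 CPM in VC, 23.1 ± 1.44 in VHL-KO). The log2 fold change of -0.28 ± 0.11 was called by a narrow margin (adjusted p = 0.0385, edgeR), and the call was lost under 10 of 14 alternatives. It was lost without any library in turn (-0.23 to -0.31; adjusted p from 0.0548 without VHL-KO 1 to 0.133 without VHL-KO 3), with GC and length offsets (-0.12), with upper quartile (-0.17) or RLE (-0.25) factors and with a filter of 10 reads in every library (-0.25); the adjusted p over all of them ran from 0.0012 to 0.223. Its direction was the same in each. Of its exonic bases, 9.9% overlap genes on the opposite strand. IL6 held a match to the NF-κB consensus, GGGATTTTCC, between 64 and 73 bases before its RefSeq start. IL12A (lower), IL32 (higher) and IL23A (not called) also held matches to this consensus.

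The common gamma chain ligands IL7 and IL15, which sustain lymphocytes and natural killer cells, were both lower. IL7 (chr8:78675743-78805523) had 60, 76 and 87 reads in VC and 4, 0 and 4 in VHL-KO. It passed the filter through VC alone, and VHL-KO libraries lay at or near the limit of detection. The log2 fold change was -4.21 ± 0.48 in edgeR, 18.5-fold lower; since the gene entered the test through the group in which it is high, its p and its calls under the alternatives add no support beyond the counts. Of its exonic bases, 16.3% overlap genes on the opposite strand. IL15 had 150, 134 and 178 reads in VC and 53, 70 and 48 in VHL-KO. The groups did not overlap, and the log2 fold change was -0.87 ± 0.22 (adjusted p = 0.00128, edgeR). With GC and length offsets it was -0.34 and not called (adjusted p = 0.159), the 1 of 14 alternatives that ended the call, with adjusted p from 2.8e-04 to 0.159 over all.

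In the interleukin-12 family, IL12A, the smaller subunit of interleukin-12, had 33 to 44 reads in VC and 2 to 19 in VHL-KO. The groups did not overlap and VHL-KO 2 had the 2 reads. Its log2 fold change of -1.20 ± 0.47 (adjusted p = 0.0299, edgeR) was not called without VC 2 (-1.0, adjusted p = 0.102), VHL-KO 1 (-1.26, adjusted p = 0.0532) or VHL-KO 2 (-0.72, adjusted p = 0.129), in DESeq2 (-1.18) or with GC and length offsets (-0.97), over a range of 0.00639 to 0.129. IL12B, with which it forms interleukin-12, had at most 3 reads. IL23A had 8 to 24 reads in VC and 6 to 11 in VHL-KO, with an interval from -1.39 to 1.04, and was 0.35 without VC 3.

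IL32, an intracellular and secreted proinflammatory protein without a close relative, had 545, 516 and 590 reads in VC and 783, 626 and 568 in VHL-KO. Raw counts overlapped through VHL-KO 3, and normalized levels did not (16.3 ± 0.955 CPM in VC, 28.3 ± 1.46 in VHL-KO). In edgeR it rose by a log2 fold change of 0.80 ± 0.12 (adjusted p = 3.1e-06). It was 0.26 with GC and length offsets, still called (adjusted p = 0.0132), and the adjusted p over 14 alternatives ran from 6.4e-11 to that value. IL34, a ligand of the macrophage receptor CSF1R, had 73, 63 and 79 reads in VC and 34, 57 and 31 in VHL-KO. VHL-KO 2 was above and the other VHL-KO libraries below VC after normalization, and the change was not called (-0.25, 95% interval -0.82 to 0.32, adjusted p = 0.45, edgeR); with GC and length offsets it was -0.83 and called (adjusted p = 0.0144; 0.0144 to 0.927 over 14 alternatives).

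**Figure D3:**
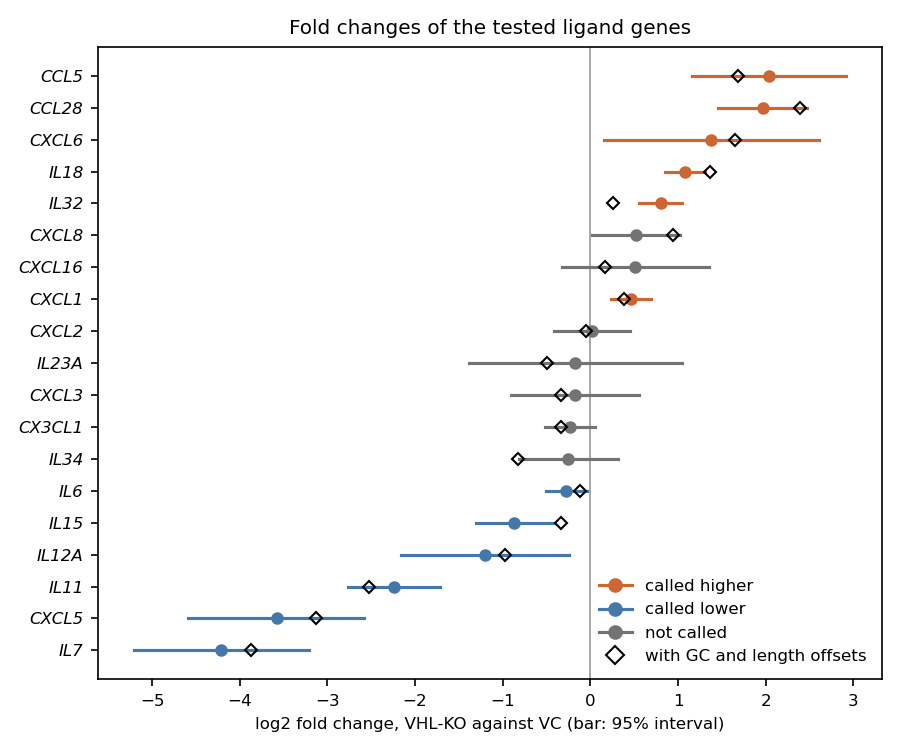
Log2 fold change of VHL-KO against VC for the 19 tested ligand genes (filled points) with 95% intervals (bars), colored by edgeR call, and the value with GC and length offsets (open diamonds). IL7 (-4.21), CXCL5 (-3.58) and IL11 (-2.24) lie lowest and CCL5 (2.04) and CCL28 (1.97) highest, on the same side with and without the offsets.

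Per kilobase of exon, CXCL1 had the highest level of the 19 genes in both groups (17.2 TMM-normalized RPKM, reads per kilobase of exon scaled to depth, in VC and 23.7 in VHL-KO), followed by IL18 (7.98 and 16.9 RPKM). Length here is that of all annotated exons of a gene together, 1362 bases for CXCL1 and 4321 for IL6, whichever transcripts the cells made. These ranks therefore depend on the annotation. Before division by length, IL6 was above CXCL1 in VC (28.0 and 23.4 CPM). Rank 3 was held by IL6 in VC (6.48 RPKM) and by IL32 in VHL-KO (8.82 RPKM). CXCL2 and CX3CL1 held ranks 5 and 6 in both groups. Farther down the order changed: IL11 had rank 7 in VC and 12 in VHL-KO, CXCL5 rank 8 and 18, and IL7 rank 11 and 19, whereas CCL5 had rank 17 and 8 and CCL28 rank 18 and 9. CCL5 and CCL28 were at 0.248 and 0.229 RPKM in VC and at 1.03 and 0.894 in VHL-KO; a difference between these genes was not tested.

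Receptors determine which ligands the cells themselves could read. Of 22 chemokine receptor genes 3 were tested, CXCR4, CCR10 and CXCR5, too few for a count or a median to describe the list. CXCR4, the receptor of CXCL12, had 59, 40 and 70 reads in VC and 647, 588 and 640 in VHL-KO. Every VHL-KO library was far above VC, at a log2 fold change of 4.04 ± 0.17 (adjusted p = 9.9e-16, edgeR), while CXCL12 had no read in either group. CCR10, a receptor of CCL28, had 39, 13 and 34 reads in VC and 53, 42 and 30 in VHL-KO; raw counts overlapped, normalized levels did not, and the log2 fold change of 1.09 ± 0.34 (adjusted p = 0.00811, edgeR) became 0.43 and not called with GC and length offsets (adjusted p = 0.313; 0.00316 to 0.313 over 14 alternatives). CXCR5 had 1 to 3 reads in VC and 4 to 16 in VHL-KO; it passed the filter through VHL-KO alone, so its call adds no support. CXCR1, CXCR2 and CX3CR1, the receptors of the ELR ligands and of CX3CL1, had no read.

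Of 42 interleukin receptor genes 24 were tested, with 7 higher and 6 lower, beside 28.5% and 31.2% of all tested genes, and a median of 0.071. The 6 include CSF1R (18 to 27 reads in VC, 0 to 6 in VHL-KO), which passed the filter through VC alone and adds no support. IL21R rose from 24 to 27 reads in VC to 69 to 136 in VHL-KO (log2 fold change 2.47 ± 0.26, adjusted p = 1.8e-08, edgeR), and IL17RC from 91 to 95 reads to 175 to 297 (1.81 ± 0.18, adjusted p = 8.3e-09). IL6R, the specific chain for IL6, had 67 to 99 reads in VC and 141 to 194 in VHL-KO (1.64 ± 0.19, adjusted p = 8.0e-08), and IL11RA, that for IL11, 55 to 81 and 89 to 104 (1.01 ± 0.22, adjusted p = 3.1e-04). IL6ST, the chain both share, and IL15RA, the specific chain for IL15, are named after their values were seen; both were called lower (-0.93, adjusted p = 7.7e-05, and -0.94, adjusted p = 2.5e-05; -0.34 and -1.35 with GC and length offsets). Among the pairs named, receptor chains thus ran with their ligands in some and opposite in others, though the IL6 and IL15 calls did not hold under every alternative. IL18R1, a receptor chain for IL18, was not called (-0.56, adjusted p = 0.229, edgeR). IL7R, the receptor chain for IL7, was lower together with it, with 170 to 286 reads in VC and 58 to 84 in VHL-KO (-1.16 ± 0.21, adjusted p = 4.3e-05, edgeR). IL2RG, the chain that IL7, IL15 and IL21 receptors share, had no read.

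Of 36 related ligands and decoys outside the name rule, 12 were tested, with 4 higher and 2 lower, beside 28.5% and 31.2% of all tested genes; their median was 0.25, and -0.096 with GC and length offsets. The 4 include IL17C (4 to 6 reads in VC, 8 to 19 in VHL-KO), which passed the filter through VHL-KO alone and adds no support. IL17C was not called with the offsets (adjusted p = 0.0554). They also include the interferon gene IFNE (13 to 22 reads in VC, 12 to 36 in VHL-KO), whose groups overlapped (1.19 ± 0.43, adjusted p = 0.0209, edgeR). The interferon genes IFNA1, IFNB1, IFNG, IFNK and IFNL2 had no read, and IFNL1 and IFNL3 at most 2 and 1. MIF, a chemokine-like cytokine, had 2418, 2034 and 2385 reads in VC and 4106, 3574 and 2803 in VHL-KO. All VHL-KO libraries were higher, and the log2 fold change was 1.16 ± 0.10 (adjusted p = 4.6e-10, edgeR) but 0.17 and not called with GC and length offsets (adjusted p = 0.0618, the highest of 14 alternatives that began at 6.9e-29). EBI3, a subunit of interleukin-27 and interleukin-35, had 92 to 97 reads in VC and 26 to 34 in VHL-KO (-1.06 ± 0.26, adjusted p = 0.00125, edgeR; -1.67 with the offsets). Of the IL6 relatives, LIF was lower (-0.35 ± 0.10, adjusted p = 0.00407) and lost its call with upper quartile factors (-0.24, adjusted p = 0.0502; 1.2e-06 to 0.0502 over 14 alternatives). CLCF1 was higher (0.39 ± 0.11, adjusted p = 0.00288), but it was not called with library size alone (0.20, adjusted p = 0.101) and was -0.049 with the offsets (adjusted p = 0.587; 2.6e-04 to 0.587 over 14 alternatives).

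Of 27 regulators of these transcripts, all were tested, with 10 higher and 8 lower, beside 28.5% and 31.2% of all tested genes; their median was 0.14, and -0.036 with GC and length offsets. AP-1 subunit genes were called in both directions. FOSL1 was lower (17682 to 18558 reads in VC, 4766 to 6245 in VHL-KO; -1.21 ± 0.09, adjusted p = 5.6e-11, edgeR), and FOS (28 to 30 and 37 to 50 reads; 1.20 ± 0.30, adjusted p = 0.00139) and JUND (1.05 ± 0.10, adjusted p = 2.4e-09; 0.38 with GC and length offsets) were higher. Named after their values were seen, FOSB (-1.34, adjusted p = 0.0092) and FOSL2 (-0.60, adjusted p = 4.4e-06) were also called lower, and JUN (0.42, adjusted p = 3.1e-04) and JUNB (0.74, adjusted p = 1.1e-06; 0.12 and not called with the offsets) higher. CEBPD, a transcription factor of acute-phase and cytokine genes, was higher (1238 to 1342 reads in VC, 2237 to 2847 in VHL-KO; 2.82-fold, adjusted p = 6.3e-12, edgeR; log2 fold change 0.75 with the offsets). ELAVL1, an RNA-binding protein that stabilizes AU-rich cytokine mRNAs, was lower (-0.92 ± 0.09, adjusted p = 9.3e-09). The NF-κB subunit genes were picked out after their values were seen: NFKB1 was called lower (-0.70), RELA and RELB higher (0.40 and 0.51), and NFKB2 and REL were not called (-0.099 and 0.22). With the offsets only RELA kept its call (0.18, adjusted p = 0.00885), NFKB1 (-0.14, adjusted p = 0.254) and RELB (-0.036, adjusted p = 0.681) lost theirs, and NFKB2 (-0.48, adjusted p = 6.7e-07) and REL (0.74, adjusted p = 0.0461) gained one, so no common direction of these genes can be given.

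Of 11 genes for maturation and shedding of ligands 7 were tested, with 5 higher and 2 lower, beside 28.5% and 31.2% of all tested genes (median 0.66). The 2 lower genes were NLRP3 and ADAM10, and ADAM10 (-0.33, adjusted p = 0.0199, overlapping groups) was called higher with GC and length offsets (0.21, adjusted p = 0.0178), so no direction is given for it. ADAM17, among the 5 higher genes, also had overlapping groups and was called by a narrow margin (0.27, adjusted p = 0.0391, edgeR). It was 0.81 with the offsets. NLRP3, the sensor of an inflammasome that activates caspase-1, had 99, 73 and 81 reads in VC and 5, 2 and 4 in VHL-KO. It passed the filter through VC alone, so its call adds no support beyond these counts (log2 fold change -3.95 ± 0.39, edgeR). Its adaptor PYCARD moved the other way, with 32, 44 and 52 reads in VC and 173, 137 and 187 in VHL-KO (2.51 ± 0.23, adjusted p = 1.0e-09; 1.82 with GC and length offsets). CASP4 (0.96 ± 0.12, adjusted p = 2.5e-07, edgeR), CASP1 (0.90 ± 0.33, adjusted p = 0.0222) and GSDMD, the pore through which cytokines leave (0.66 ± 0.10, adjusted p = 5.0e-06), were higher as IL18 was. CASP1 had 24 to 29 reads in VC and 30 to 37 in VHL-KO, and its call was lost without VC 1 (0.85, adjusted p = 0.0855) or VC 3 (0.91, adjusted p = 0.063) and with library size alone (0.71, adjusted p = 0.064), over a range of 0.00251 to 0.0855. Protein levels, cleavage and secretion were not measured in these data.

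**Figure D4:**
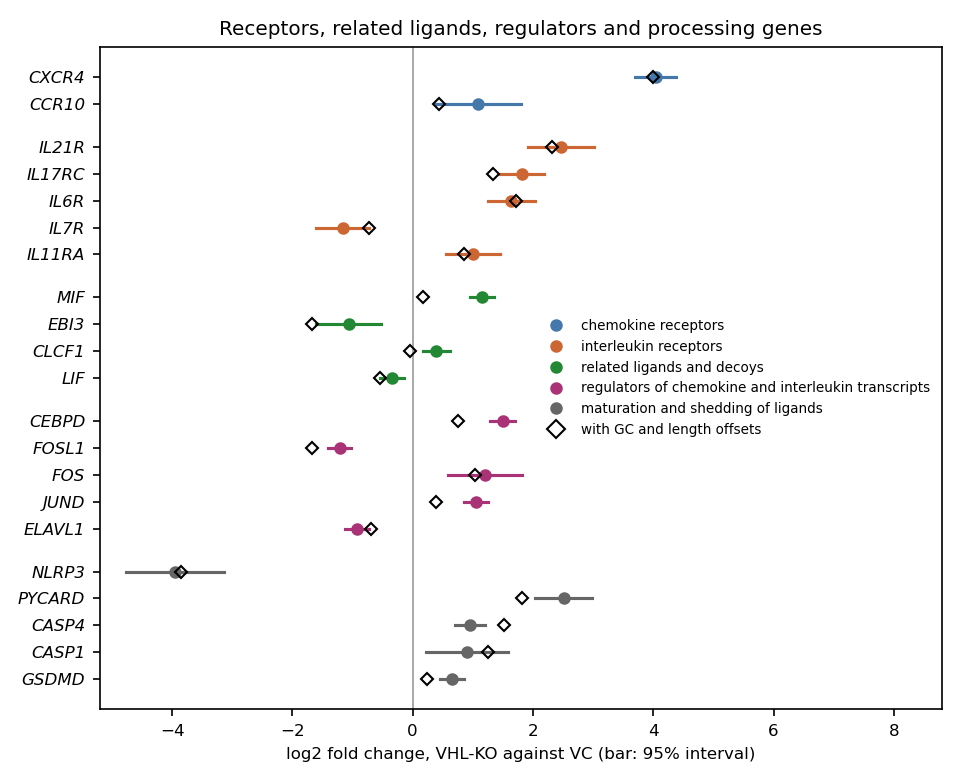
Log2 fold change of VHL-KO against VC (filled points) with 95% intervals (bars) for the 5 largest changes, or all where fewer qualified, among called genes of each related list with a mean of at least 1 CPM, and the value with GC and length offsets (open diamonds). CXCR4 (4.04) lies highest and NLRP3 (-3.95) lowest; MIF (1.16) and CLCF1 (0.39) come close to 0 with the offsets.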

How the data were processed

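The deposited values are raw gene counts: the authors trimmed reads with Trim Galore and Cutadapt, aligned them to GRCh38.p13 with STAR, kept uniquely placed reads with SAMtools and counted them with HTSeq; tool versions, annotation release and strandedness are not given in the sources used here. The authors' own tests, on genes with 10 or more reads in any library, used DESeq2. From these counts, genes with at least 10 reads in any of the 6 samples were fitted in edgeR 4.0.16 (R 4.3.3) with TMM factors and a quasi-likelihood test of VHL-KO against VC, adjusted by Benjamini-Hochberg over all 17401 genes and called at an adjusted p under 0.05. The procedure was tested on simulated counts, in which few genes changed and no GC trend was set, so that test does not cover these features of the data. DESeq2 1.42.0, other factors and filters, each replicate left out, a replicate block, and offsets per library from natural splines (5 degrees of freedom) of GC content and transcript length were alternatives. Exon lengths, overlaps and coordinates came from GENCODE v44 on GRCh38. Per-sample counts are given for ligand genes with a mean of at least 1 CPM, ranges for the other tested ones, and from each related list the 5 largest absolute log2 fold changes among called genes with a mean of at least 1 CPM are named. The ligand rule and the lists were chosen with earlier results of these data known.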

Additional observations from a re-analysis of the deposited data

How the results depend on the processing

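Of 19 tested ligand genes, 9 kept their direction and their side of the threshold under every alternative tried (CCL28, CCL5, CXCL1, CXCL16, CXCL5, IL11, IL18, IL32 and IL7). IL7 passed the filter through VC alone, so its place among them adds no support. CXCL5 did so without VHL-KO 3, and its call in that fit adds none either. Ligand genes called lower numbered 6 and, with 10 reads in every sample, 2, since that filter takes out IL7, CXCL5 and IL12A and IL6 then misses the threshold. With a floor of 1 read in any sample 36 ligand genes remained in place of 19. The median log2 fold change of the tested ligand genes (-0.17) was -0.057 with upper quartile factors, -0.37 with library size alone, 0.023 with no filter beyond 1 count, 0.047 with 10 reads in every sample and from -0.23 to 0.097 when a replicate was left out. VHL was -0.22 with upper quartile factors, -0.11 with GC and length offsets and from -0.39 to -0.28 with a replicate left out. The CXCL2 change (0.015) was -0.18 with library size alone, -0.023 with no filter beyond 1 count, -0.048 with the offsets and from -0.26 to 0.22 with a replicate left out. Without a replicate, CXCL3 ranged from -0.33 to 0.031 and IL23A from -0.36 to 0.35. CLCF1 was -0.049 with the offsets. The cause was not tested. Same-numbered samples showed little common deviation (r from -0.00 to 0.06, and not each highest with its own number). With 3 libraries per group this cannot exclude that a number marks a shared batch, and the main fit did not pair samples. With a replicate block 5 ligand genes were called higher and 6 lower, CXCL2 was -0.016 and the median -0.095, and CXCL6 lost its call (1.41, edgeR adjusted p = 0.0622). Depth limits the 57 ligand genes under 10 reads.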
